A study of Mus musculus with 10 samples.

Results

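The colon of mice given azoxymethane and dextran sulfate sodium was compared with the colon of control mice given saline. The members were chosen by column name: the 2 AOM/DSS libraries and the 2 control libraries, 4 of the 10 libraries of the series, with transcript values summed per gene. Mice of both groups were of the C57BL/6 strain and ate the AIN-93M diet. Mice of the Control group received saline, and the labels give their age at injection as 6 weeks too. Mice of the Model group received azoxymethane (AOM), a carcinogen that methylates DNA, at 10 mg/kg under the skin at an age of 6 weeks, and 1 week later dextran sulfate sodium (DSS), a polymer that injures the colon lining, at 1.2% in the drinking water for 7 days. The labels name the Control tissue colonic and the Model tissue tumor, while the protocol describes what was left of the colon once its proximal end and the palpable tumours had been cut away. No label gives the amount of tumour in a piece, and tissue name, carcinogen and DSS all follow the 2 groups, so their effects cannot be told apart. Nothing in the labels tells whether replicates 0 and 1 were different animals, pools or repeats, so a p-value here covers no more than the difference between such libraries and may reflect technical spread. The 6 other libraries came from AOM/DSS mice fed aspirin, curcumin or both and entered the estimate of the spread and the filter on low values; their values are given in a few places for comparison.

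The lining of the colon is renewed from stem cells at the base of crypts, where Wnt ligands keep beta-catenin in the nucleus and secreted inhibitors limit the signal. Daughter cells become absorptive colonocytes, which take up salt, water and short-chain fatty acids, or secretory goblet, tuft and enteroendocrine cells. Paneth cells, which make lysozyme and alpha-defensins, normally belong to the small intestine, and tumours of the AOM/DSS model commonly carry activating mutations of the beta-catenin gene.

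Expression was measured as FPKM, fragments scaled to transcript length and to the mapped fragments of the library, with 2 libraries per group. The sums of FPKM over all genes were 720900 and 640000 in Control and 580400 and 553500 in Model. Values are always given for replicate 0 and then replicate 1. A log2 change is the Model mean minus the Control mean of log2(FPKM + 1), with limma's standard error, and a gene passed when limma's adjusted p was under 0.05. The epithelial content of the tissue was checked first. All 18 markers that any gut epithelial cell expresses were present, their sums were 9950 and 11210 FPKM in Control and 9757 and 7107 FPKM in Model, and none of the 18 passed. Of the 18, 16 had a negative log2 change, with a median of -0.32. Epcam, a surface adhesion protein, was at 805 and 912 FPKM in Control and 924 and 746 FPKM in Model, and Cdh1, the junction protein E-cadherin, at 305 and 399 FPKM in Control and 352 and 245 FPKM in Model. The groups overlapped for both genes.

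Of 14061 genes tested, 2276 passed (16.2% of all tested), 962 higher (6.84%) and 1314 lower (9.34%), and the median log2 change of all tested genes was 0.02. In all 2276 the libraries of the groups did not overlap, as was also so for 9130 of the 14061 tested. Among those that passed, 97 were higher by at least 3 on the log2 scale and 50 were lower by as much. Of the rises, 34 were in genes at 0 in both Controls, and 2 of the falls were in genes at 0 in both Model libraries. Such genes could move in only 1 direction. A gene could pass the filter on low values through AOM/DSS libraries alone, so counts of rises among genes low in Control lean upward. Fewer genes passed in each of the 4 fits that left out 1 Control or Model library. Such a fit has 1 library in a group and so less power, which cannot be told apart from a difference between libraries. A set of 446 genes passed in the same direction in all 4 of these fits, and a call of this kind is described below as held. The balance of directions depended on scaling: 42.3% of the calls were higher as deposited, and 71.1% were higher (1195 higher and 485 lower) once each library was shifted to the same mean of the 18 epithelial markers, which moved the median log2 change of all genes to 0.295. Fewer cells of a type and less RNA per cell cannot be told apart in these bulk libraries.

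**Figure D1:**
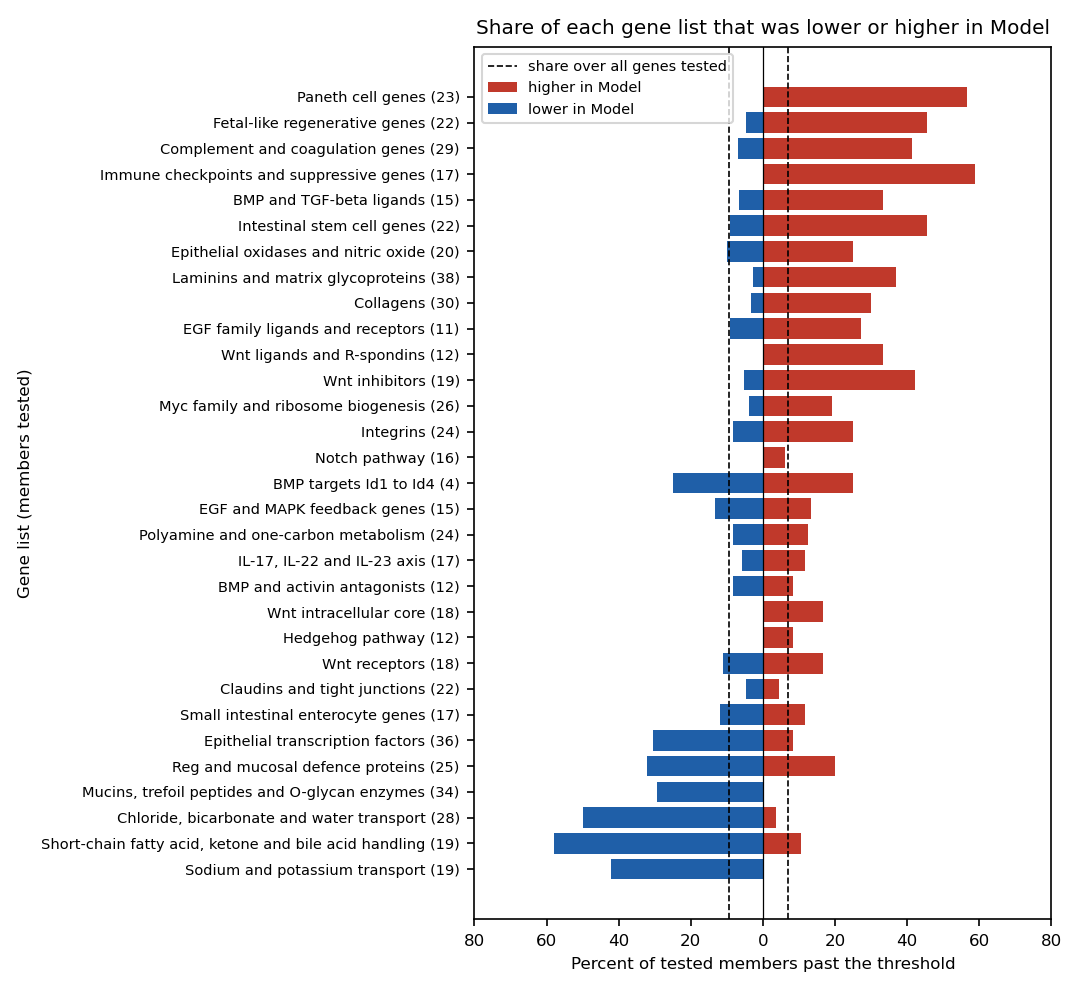
Share of the tested members of each pathway or function list (cell type marker lists are not drawn) that passed lower (blue, to the left) or higher (red, to the right) in Model, in percent, with lists ordered by their median log2 change and the number of members tested in brackets. The dashed lines mark the shares over all genes tested, 9.34% lower and 6.84% higher; sodium and potassium transport, with 8 of 19 members lower, stands at the bottom and Paneth cell genes, with 13 of 23 higher, at the top.

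The 12 genes with the highest moderated t were Lyz1, Mmp7, Notum, Fam89a, Wif1, Cfi, Ifitm3, Defa24, Steap4, Mmp10, Htra1 and Arl4c. Lyz1, a lysozyme of Paneth cells, had 7.24 and 6.48 FPKM in Control and 1746 and 2760.2 FPKM in Model (log2 change 8.13 ± 0.28, adjusted p = 1.84e-05). Fam89a, a gene of little known function (chr8:124740257-124751866, GRCm38), had 1.28 and 1.3 FPKM in Control and 24.7 and 24 FPKM in Model (log2 change 3.47 ± 0.19, adjusted p = 0.000248). The libraries of each group lay close together, and the 6 diet libraries, at 21.4 to 33.7 FPKM, also lay above both Controls. Steap4, a metal reductase of the cell surface, went from 3.84 and 2.69 to 26.8 and 33.1 FPKM (log2 change 2.87 ± 0.22, adjusted p = 0.000758), and Ifitm3, a membrane protein that blocks virus entry, from 130.3 and 104 to 949 and 779 FPKM (log2 change 2.88 ± 0.21, adjusted p = 0.000611). Htra1, a secreted serine protease, rose from 23 and 19.8 to 109 and 103 FPKM, and Arl4c, a small GTPase, from 2.21 and 1.75 to 12.4 and 13.6 FPKM (log2 changes 2.26 and 2.23, adjusted p = 0.000776 for both). The calls of all 6 genes held.

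The 12 genes with the lowest moderated t were Prph, Gcg, Stmn3, Eef1a2, Retn, Adipoq, Car3, Calb2, Cfd, Zcchc12, Popdc2 and Des. Stmn3, a microtubule regulator of neurons, fell from 16.8 and 12.6 to 0.54 and 0.82 FPKM (log2 change -3.22 ± 0.20, adjusted p = 0.000395). Eef1a2, the elongation factor form of neurons and muscle, fell from 9.86 and 10.8 to 0.588 and 0.385 FPKM, and Calb2, the calcium buffer calretinin, from 19.2 and 18.4 to 1.24 and 0.887 FPKM (adjusted p = 0.000569 and 0.000611). Popdc2, a membrane protein of muscle, fell from 24.3 and 15.4 to 1.24 and 0.99 FPKM, and Zcchc12, a zinc-finger coactivator, from 5.08 and 5.64 to 0.225 and 0.162 FPKM (adjusted p = 0.000741 and 0.000619). These 5 calls held, as did that of Gcg, the glucagon gene of L cells, and both Model libraries were far below both Controls for every one of them.

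In absolute FPKM the largest gains were Lyz1, Defa24, S100a11, Apoe, Defa30, Ifitm3, Lyz2 and Pglyrp1. S100a11, a calcium-binding protein, rose from 452 and 461 to 1644 and 1266 FPKM (log2 change 1.66 ± 0.37, adjusted p = 0.0228), and Pglyrp1, which binds bacterial peptidoglycan, from 338 and 336 to 838 and 881 FPKM (log2 change 1.35 ± 0.29, adjusted p = 0.0195). Apoe, a lipid carrier that macrophages secrete, rose from 242 and 204 to 540.1 and 1582 FPKM, most in Model replicate 1 (log2 change 2.05 ± 0.58, adjusted p = 0.0496). Of these 8 calls, those of Lyz1, Defa24 and Ifitm3 held. The largest losses were Mptx1, Clca1, Zg16, Guca2a, Agr2, Sycn, Klk1 and Saa1. Klk1, a tissue kallikrein, fell from 2492 and 2119.5 to 369 and 234 FPKM (log2 change -2.96 ± 0.30, adjusted p = 0.00128), and Clca1, a protease of goblet cell mucus, from 8710.1 and 2640.4 to 423 and 205 FPKM (log2 change -4.02 ± 0.62, adjusted p = 0.00609). These were the calls among the 8 losses that held. Agr2, a disulfide isomerase needed to fold mucin, fell from 4289 and 2740.4 to 1028 and 885 FPKM (log2 change -1.84 ± 0.36, adjusted p = 0.0145), and lost its call without Control replicate 0 or Model replicate 1.

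Among Wnt genes, rises were found in ligands and inhibitors, and receptors passed in both directions. Of 12 Wnt ligands and R-spondins tested (25 listed), 4 rose and none fell, with a median log2 change of 0.61. Wnt6, a ligand of the canonical pathway, had 0.515 and 0.461 FPKM in Control and 14 and 21.2 FPKM in Model (log2 change 3.62 ± 0.44, adjusted p = 0.00236), and its call held. Wnt10a, another canonical ligand, had 0.182 and 0.0376 FPKM in Control and 5.79 and 12.1 FPKM in Model (log2 change 3.09 ± 0.76, adjusted p = 0.0318). Wnt3, the ligand that Paneth cells supply to stem cells, had 0.0276 and 0.114 FPKM in Control and 1.63 and 2.76 FPKM in Model, and Wnt5a, a non-canonical ligand of the stroma, 3.95 and 2.72 FPKM in Control and 11.6 and 29.4 FPKM in Model (adjusted p = 0.0194 and 0.0246). The groups did not overlap for any of these 4, and Model replicate 1 was the higher Model library each time. Wnt6, Wnt10a and Wnt3 were under 1 FPKM in both Controls. They were tested only because AOM/DSS libraries passed the filter on low values, so the count and median of the list lean upward. Only Wnt6 passed when either Control library or Model replicate 1 was left out. Rspo3, the R-spondin of the stroma below crypts, had 4.28 and 2.99 FPKM in Control and 1.83 and 2.18 FPKM in Model and did not pass (log2 change -0.61 ± 0.30, adjusted p = 0.205).

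Wnt receptors passed in 5 of 18 tested, 3 higher and 2 lower, and the median of the list was -0.16 (0.11 with the epithelial scaling and 0.11 without Model replicate 0). Lgr5, the R-spondin receptor of crypt stem cells, had 3.15 and 4.05 FPKM in Control and 12.3 and 11.9 FPKM in Model (log2 change 1.52 ± 0.28, adjusted p = 0.0114). Ptk7, a co-receptor, rose from 7.58 and 8.7 to 22.3 and 22.8 FPKM (log2 change 1.37 ± 0.21, adjusted p = 0.00614), and Fzd1, a Frizzled receptor, from 13 and 12.6 to 18.4 and 25.3 FPKM. Fzd5, the main Frizzled of Paneth cells, fell from 22.1 and 24.3 to 10.8 and 7.49 FPKM (log2 change -1.27 ± 0.20, adjusted p = 0.00613), and Fzd8 from 4.18 and 5.91 to 2.14 and 2.92 FPKM, which was lost with the epithelial scaling. No receptor call held: without Control replicate 0 there were 0 higher and 1 lower, and without Control replicate 1 there were 1 higher and 0 lower.

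Inhibitors of the pathway rose in 8 of 19 tested and fell in 1, with a median of 0.58, and 6 of the 8 rises held. Wif1, which binds Wnt ligands outside the cell, had 0.983 and 1.43 FPKM in Control and 243 and 160.2 FPKM in Model (log2 change 6.50 ± 0.40, adjusted p = 0.000395). Notum, an enzyme that removes the lipid of Wnt ligands, had 0.617 and 0.328 FPKM in Control and 98.9 and 136 FPKM in Model (log2 change 6.32 ± 0.34, adjusted p = 0.000248). Both genes were near the bottom of the scale in Control, and the groups lay far apart. Nkd1, which binds Dishevelled, rose from 8.87 and 6.29 to 107 and 100.4 FPKM, Rnf43, a ligase that removes Frizzled, from 8.19 and 8.99 to 40.3 and 46.8 FPKM, and Axin2, the scaffold of the destruction complex, from 13.9 and 13 to 74.4 and 61.3 FPKM (adjusted p = 0.000985, 0.00109 and 0.0038). Dkk2, a ligand of the Lrp co-receptors, rose from 0.805 and 0.951 to 21.3 and 11.1 FPKM, and its call held as well. Sfrp5, a secreted Frizzled-like protein, was the member that fell, from 1.7 and 1.52 to 0.337 and 0.455 FPKM (log2 change -0.90 ± 0.21, adjusted p = 0.0258), and it did not pass with the epithelial scaling.

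Within the cell, 3 of 18 core components rose and none fell, with a median of 0.12, beside 6.84% higher and 9.34% lower of all genes tested. Tcf7, a DNA-binding partner of beta-catenin, had 2.92 and 3.97 FPKM in Control and 31.3 and 29.1 FPKM in Model (log2 change 2.82 ± 0.29, adjusted p = 0.00131), and Csnk1e, a kinase that acts on Dishevelled, had 8.58 and 8.03 FPKM in Control and 21.2 and 26.3 FPKM in Model (log2 change 1.41 ± 0.19, adjusted p = 0.00326). Both calls held. Lef1, the related partner, rose from 0.142 and 0.265 to 11.6 and 7.59 FPKM (log2 change 3.11 ± 0.54, adjusted p = 0.00951) and lost its call without either Control library. The plot of Wnt genes by role shows the libraries of each of these genes.

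**Figure D2:**
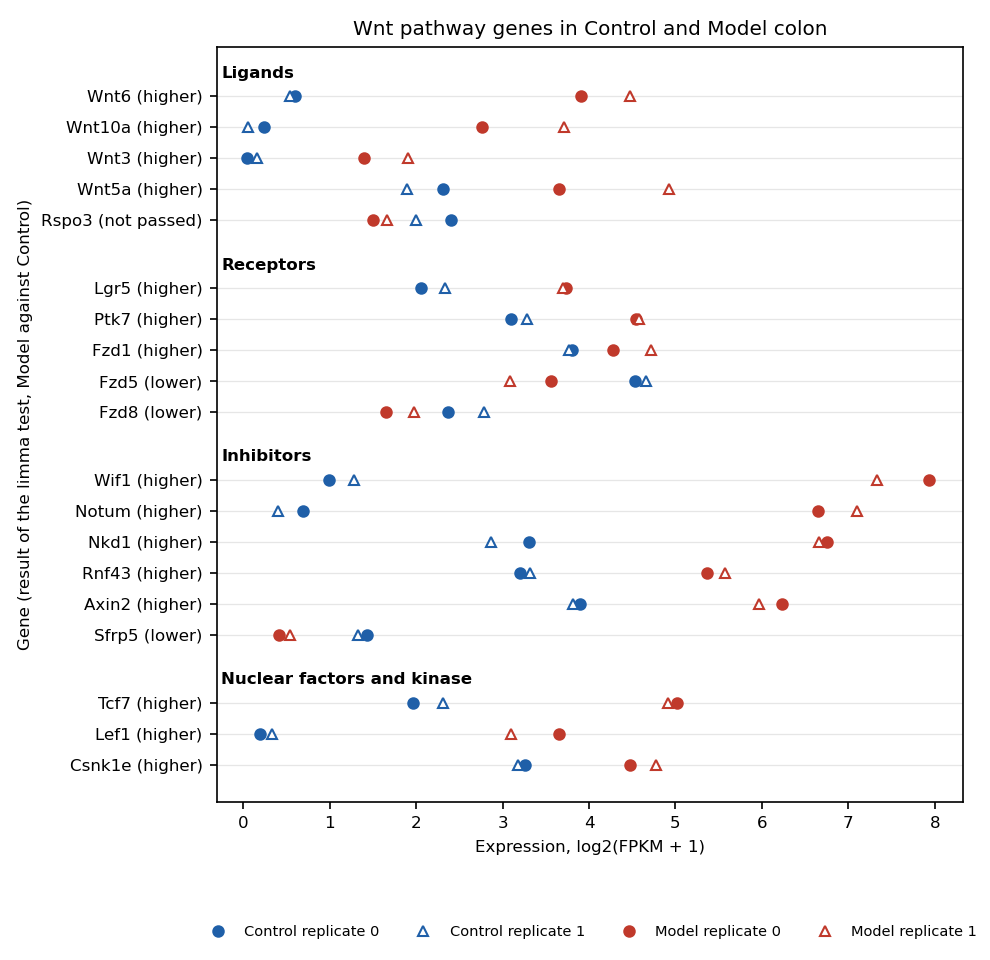
Expression of Wnt pathway genes as log2(FPKM + 1) in the 2 Control libraries (blue) and the 2 Model libraries (red), with circles for replicate 0 and open triangles for replicate 1, grouped by role, and with the result of the test beside each name. The inhibitors Wif1 and Notum show the widest gap between groups, Fzd5, Fzd8 and Sfrp5 lie lower in Model, and Rspo3 did not pass.

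Stem cell genes rose in 10 of 22 tested and fell in 2, with a median of 0.75. Mex3a, an RNA-binding protein of slow-cycling crypt cells, had 0.696 and 0.886 FPKM in Control and 9.29 and 7.81 FPKM in Model (log2 change 2.41 ± 0.27, adjusted p = 0.00167). Cd44, a hyaluronan receptor of crypt base cells, rose from 15.5 and 14 to 41.5 and 39.7 FPKM, and Tnfrsf19, the receptor Troy, from 1.8 and 1.58 to 22.7 and 15.4 FPKM (adjusted p = 0.00292 and 0.00521). With Rnf43, which is also on this list, these are the 4 whose calls held, and 4 rises passed without Control replicate 1. Sox9, a crypt factor, rose from 22.3 and 19.3 to 36.6 and 33.8 FPKM (log2 change 0.73 ± 0.16, adjusted p = 0.0211). Lrig1, a brake on EGF receptors that marks quiescent stem cells, fell from 47 and 46.9 to 30.9 and 24.5 FPKM, and Rgmb, a BMP co-receptor, from 37.7 and 35.8 to 12.7 and 12.4 FPKM (adjusted p = 0.0217 and 0.00883). The call of Lrig1 was lost with the epithelial scaling. Ascl2, the master factor of the Lgr5 cells, had 5.72 and 4.77 FPKM in Control and 10.1 and 13.7 FPKM in Model and did not pass (adjusted p = 0.0522). Olfm4, a stem cell marker of the small intestine, was at 0 and 0 FPKM in Control and 0.177 and 0.0447 FPKM in Model.

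Genes of the fetal-like state, which injured crypts re-enter while they heal, rose in 10 of 22 and fell in 1, with a median of 1.41. Cldn4, a claudin of tight junctions, rose from 18.2 and 34.6 to 273 and 179 FPKM (log2 change 3.09 ± 0.40, adjusted p = 0.00289), and Krt7, a keratin of simple duct epithelia, from 83.7 and 92.3 to 313 and 248 FPKM (log2 change 1.65 ± 0.20, adjusted p = 0.00233). Both calls held, and 4 rises passed without either Control library. Clu, the secreted chaperone clusterin that marks revival stem cells, rose from 18.1 and 21.7 to 256 and 486 FPKM (log2 change 4.09 ± 0.67, adjusted p = 0.00745). Gja1, a gap junction protein, rose from 16 and 11.6 to 32 and 49.3 FPKM, and Tm4sf4, a tetraspanin-like protein, fell from 6.98 and 6.77 to 1.91 and 1.55 FPKM (adjusted p = 0.0162 and 0.00613). Ly6a, the antigen Sca-1, had 357 and 254 FPKM in Control and 809.5 and 546 FPKM in Model, and Anxa1 had 149 and 152 FPKM in Control and 393 and 242 FPKM in Model. Both were above the Controls in each Model library, and neither passed (adjusted p = 0.17 and 0.0599).

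EGF family genes passed in 4 of 11, beside 16.2% of all genes tested, and no call held. Tgfa, an EGF receptor ligand, had 9.02 and 10.1 FPKM in Control and 19.6 and 18.4 FPKM in Model (log2 change 0.93 ± 0.20, adjusted p = 0.0205). Btc, betacellulin, had 3.88 and 4.1 FPKM in Control and 10.7 and 8.85 FPKM in Model (log2 change 1.10 ± 0.26, adjusted p = 0.026), and Nrg1, a ligand of Erbb3, had 1.56 and 0.697 FPKM in Control and 5.87 and 3.36 FPKM in Model (log2 change 1.39 ± 0.40, adjusted p = 0.0498). Egf itself fell from 1.56 and 3 to 0.549 and 0.385 FPKM (log2 change -1.13 ± 0.24, adjusted p = 0.0197). Areg and Ereg, ligands that damaged epithelium makes, were higher in both Model libraries than in the Controls without passing: Areg at 14.9 and 11.6 FPKM in Control and 45.9 and 30.1 FPKM in Model and Ereg at 2.28 and 1.93 FPKM in Control and 18 and 5.46 FPKM in Model (adjusted p = 0.183 and 0.226). Egfr had 8.94 and 13 FPKM in Control and 17 and 12.2 FPKM in Model, and its groups overlapped. No ligand passed as higher when any of the 4 libraries was left out. Among 15 feedback genes of EGF and MAPK signalling, 2 rose and 2 fell, beside 6.84% higher and 9.34% lower of all genes tested. Phlda1 had 19.7 and 13.3 FPKM in Control and 124 and 109.7 FPKM in Model (log2 change 2.77 ± 0.35, adjusted p = 0.00287), a call that held. Dusp4, a phosphatase of ERK, had 2.09 and 2.36 FPKM in Control and 32.7 and 16.6 FPKM in Model (log2 change 2.92 ± 0.47, adjusted p = 0.00673). Lrig3 fell from 16 and 22.9 to 6.48 and 4.21 FPKM, beside Lrig1. The falls of Egf, Lrig1 and Lrig3 were lost with the epithelial scaling, under which 4 feedback genes rose.

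BMP and TGF-beta ligands, which promote differentiation of upper crypt cells, rose in 5 of 15 and fell in 1, with a median of 0.87. Bmp7 had 4.85 and 4.91 FPKM in Control and 23.5 and 36.8 FPKM in Model (log2 change 2.37 ± 0.29, adjusted p = 0.00243), and Inhbb, a subunit of activin, had 0.338 and 0.197 FPKM in Control and 5.9 and 11.4 FPKM in Model (log2 change 2.87 ± 0.38, adjusted p = 0.00331). Both calls held. Inhba, the other activin subunit, rose from 0.661 and 0.348 to 7.89 and 6.1 FPKM, and Bmp1, a protease that trims procollagen, from 5.86 and 5.84 to 13.5 and 20.2 FPKM (adjusted p = 0.00706 and 0.00736). Bmp3, an atypical and mostly inhibitory member, fell from 12 and 15.8 to 2.2 and 3.38 FPKM (log2 change -1.98 ± 0.32, adjusted p = 0.00717). Bmp4 had 17.7 and 15.3 FPKM in Control and 23.2 and 45.6 FPKM in Model and did not pass (adjusted p = 0.0996). Counts of rises were 2 without Control replicate 1 and 8 without Model replicate 0.

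Antagonists and targets of BMP moved less evenly. Of 12 antagonists tested 1 rose and 1 fell, near the 16.2% of all genes tested that passed. Smad7, an intracellular brake, rose from 10.9 and 12.5 to 19.2 and 18.1 FPKM (adjusted p = 0.0441), while Grem1, a secreted BMP antagonist, had 35.9 and 28.8 FPKM in Control and 38.5 and 61.5 FPKM in Model and did not pass (adjusted p = 0.341). Of the 4 Id genes, the usual BMP targets, Id3 had 109 and 85.8 FPKM in Control and 168 and 172 FPKM in Model (log2 change 0.81 ± 0.16, adjusted p = 0.0147) and Id4 had 12.4 and 11.7 FPKM in Control and 2.88 and 4.28 FPKM in Model (log2 change -1.53 ± 0.36, adjusted p = 0.0262). Id1 had 227 and 147 FPKM in Control and 253 and 167 FPKM in Model, with overlapping groups. The calls of Smad7, Id3 and Id4 did not hold, and that of Id4 was lost with the epithelial scaling.

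Notch and Hedgehog genes passed at about the background share or below. Jag2, a Notch ligand, was the 1 of 16 Notch genes that rose, with 1.63 and 1.42 FPKM in Control and 7.15 and 6.48 FPKM in Model (log2 change 1.63 ± 0.27, adjusted p = 0.00745), and it did not pass without Control replicate 1, while 4 Notch genes rose without Model replicate 0. Notch1 had 4.65 and 5.58 FPKM in Control and 7.05 and 8.64 FPKM in Model, and Hes1, a direct target, had 42.3 and 39.4 FPKM in Control and 40.1 and 44.4 FPKM in Model, which overlapped. Foxl1, a factor of the mesenchymal cells beneath crypts, was the 1 of 12 Hedgehog genes that rose, with 0.963 and 0.796 FPKM in Control and 2.3 and 4.18 FPKM in Model (adjusted p = 0.0335), and it passed in 1 of the 4 leave-one-out fits and not with the epithelial scaling. Ihh, the epithelial ligand, had 44.9 and 42.8 FPKM in Control and 57.4 and 36.1 FPKM in Model, and Gli1, its target in the stroma, had 2.59 and 2 FPKM in Control and 1.33 and 3.43 FPKM in Model. Both groups overlapped for these genes.

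Matrix metalloproteinases, enzymes that cut extracellular matrix, were one of the gene families with the largest share of rises among 240 families. Of 15 tested, 8 rose and 1 fell (median 1.31). Of 6 tested members in the cluster on chromosome 9, 5 rose: Mmp7 (matrilysin) from 0.811 and 1.44 to 475 and 403 FPKM, Mmp10 (stromelysin 2) from 1.48 and 0.917 to 116 and 103 FPKM, Mmp13 (collagenase 3) from 1.2 and 0.833 to 50.6 and 32.5 FPKM, Mmp12 (macrophage elastase) from 0.45 and 0.626 to 7.88 and 11.4 FPKM and Mmp3 (stromelysin 1) from 2.05 and 0.786 to 11.9 and 18.4 FPKM. In each case both Model libraries lay above both Controls. Log2 changes were 7.70, 5.66, 4.37, 2.77 and 2.76, with adjusted p from 1.84e-05 for Mmp7 to 0.0351 for Mmp3. The calls of Mmp7, Mmp10, Mmp12 and Mmp13 held, and that of Mmp3 was lost whichever of the 4 libraries was left out. Mmp8, the neutrophil collagenase in the same cluster, was at 0 and 0 FPKM in Control and 0.511 and 0.402 FPKM in Model.

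The promoters of the cluster are shown because these neighbours rose together and because most of them hold the same short motif. The letters are RefSeq sequence of GRCm38.p6 on the plus strand, 130 bases that end at the base before the annotated start, with the AP-1 motif, TGAGTCA or its reverse complement TGACTCA, in capitals. They span chr9:7691960-7692089 for Mmp7, chr9:7502212-7502341 for Mmp10, chr9:7272384-7272513 for Mmp13 and chr9:7445692-7445821 for Mmp3.
Mmp7: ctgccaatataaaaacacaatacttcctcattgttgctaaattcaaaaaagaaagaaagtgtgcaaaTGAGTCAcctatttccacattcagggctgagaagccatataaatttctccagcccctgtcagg
Mmp10: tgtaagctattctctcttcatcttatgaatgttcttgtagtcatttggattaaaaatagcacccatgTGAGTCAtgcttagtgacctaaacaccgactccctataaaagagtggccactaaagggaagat
Mmp13: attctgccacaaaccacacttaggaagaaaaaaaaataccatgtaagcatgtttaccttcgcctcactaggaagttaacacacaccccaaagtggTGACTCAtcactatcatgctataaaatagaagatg
Mmp3: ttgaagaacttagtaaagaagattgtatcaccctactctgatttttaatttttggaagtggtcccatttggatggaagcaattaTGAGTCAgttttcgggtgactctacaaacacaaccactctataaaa
The motif begins 63 bases before the start in Mmp7 and in Mmp10, 35 bases before it in Mmp13 and 46 bases before it in Mmp3. Within the 250 bases before a start, on either strand, it was in 5 of the 6 tested genes of the cluster (Mmp3, Mmp7, Mmp10, Mmp12 and Mmp13, though not Mmp8). It was in 0 of 5 tested Mmp genes on other chromosomes that have a window. Counted per gene in the same way, it was in 4.48% of the 11003 tested genes that have a window. Genes of 1 cluster may not be independent of each other, so this share is no test of the cluster. For Mmp7 and Mmp12 the motif was in 1 of 2 annotated windows. Promoters of Mmp2, Mmp9, Mmp17 and Mmp19 were not searched, so Mmp14 is the only riser on another chromosome among the 5. Timp1, Timp2 and Timp3, inhibitors of these enzymes, held no AP-1 motif. A second motif, that of TCF factors (CTTTGAT or ATCAAAG), was searched in the same way in Wnt genes. It was in Sp5 and Tnfrsf19, and not in Axin2, Nkd1, Rnf43, Wif1, Tcf7 or Lef1. The share over the tested genes that have a window was 2.89%. Notum, Lgr5, Apcdd1 and Znrf3 had no window. A match of letters is a description of sequence and no measure of binding. Of the genes of AP-1 itself, picked after their values were seen, Jun had 43.2 and 43.8 FPKM in Control and 75.5 and 88.3 FPKM in Model (log2 change 0.89 ± 0.23, adjusted p = 0.0353), which did not hold, while Junb (46.5 and 33.9 FPKM in Control and 97.1 and 62.1 FPKM in Model) and Fos (49.1 and 57.7 FPKM in Control and 65.9 and 39 FPKM in Model) did not pass (adjusted p = 0.112 and 0.952).

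Members on other chromosomes included Mmp9 (gelatinase B), which had 0.767 and 0.951 FPKM in Control and 20.7 and 31.6 FPKM in Model, Mmp2 (gelatinase A), which had 20.2 and 18.2 FPKM in Control and 52.1 and 78.6 FPKM in Model, and Mmp14, a membrane-bound member, which had 45.9 and 44.9 FPKM in Control and 111 and 118 FPKM in Model. Their adjusted p were 0.00275, 0.00222 and 0.00109, and all 3 calls held. Mmp17, another membrane-bound member, fell from 10.7 and 6.5 to 1.62 and 1.97 FPKM (log2 change -1.75 ± 0.24, adjusted p = 0.0039), which also held. Timp1, a secreted inhibitor of these enzymes, rose from 2.86 and 1.61 to 23.6 and 22 FPKM (log2 change 2.91 ± 0.39, adjusted p = 0.00326).

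**Figure D3:**
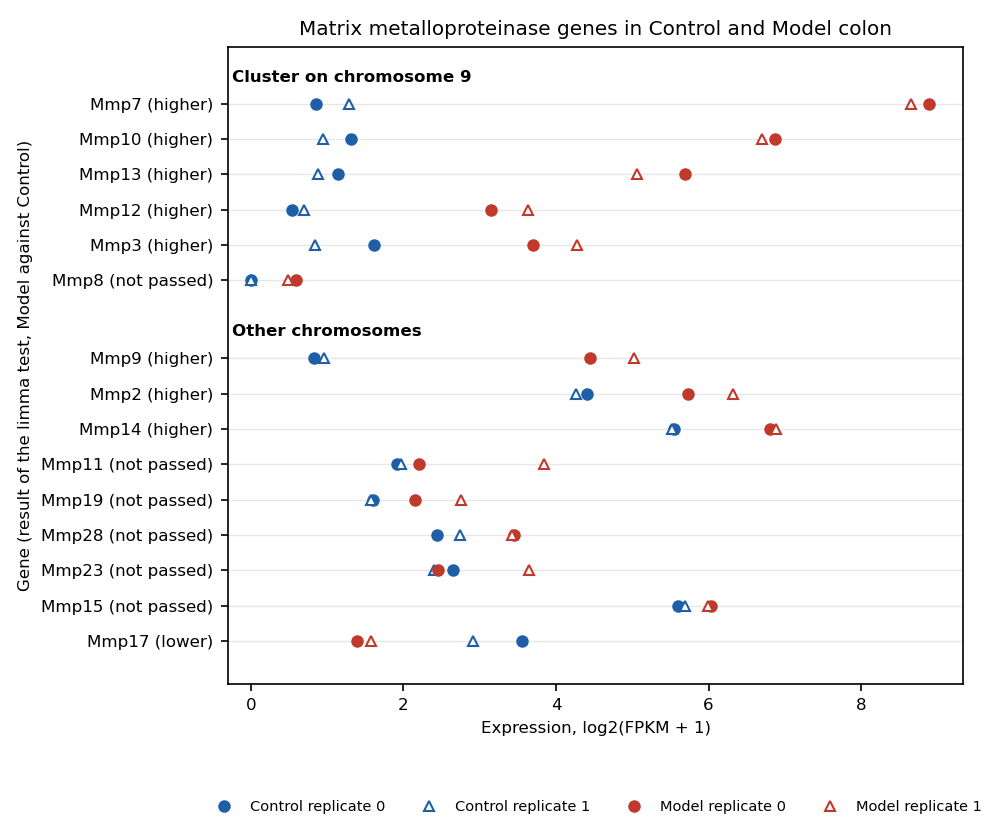
Expression of the 15 tested matrix metalloproteinase genes as log2(FPKM + 1) in the 2 Control libraries (blue) and the 2 Model libraries (red), with circles for replicate 0 and open triangles for replicate 1, split into the chromosome 9 cluster and other chromosomes. Mmp7 and Mmp10 show the widest gaps, and Mmp17 is the member that lies lower in Model.

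Transcription factors of gut epithelium, a list that includes crypt and progenitor factors, fell in 11 of 36 and rose in 3 (median -0.66). Atoh1, the factor that commits cells to the secretory lineage, had 44.7 and 49.8 FPKM in Control and 14.4 and 14.4 FPKM in Model (log2 change -1.65 ± 0.23, adjusted p = 0.00392), and it was the only 1 of the 14 whose call held. Ppara, the receptor that drives fatty acid oxidation, fell from 4.19 and 5.16 to 0.88 and 0.902 FPKM (log2 change -1.58 ± 0.25, adjusted p = 0.00655). Neurog3, the endocrine progenitor factor, went from 1.91 and 1.87 to 0.522 and 0.336 FPKM, and Pou2f3, the tuft cell factor, from 1.35 and 1.55 to 0.413 and 0.418 FPKM (adjusted p = 0.0192 and 0.0235), both lost with the epithelial scaling. Prdm1 (Blimp1), a factor of fetal gut epithelium and plasma cells, rose from 1.13 and 0.675 to 3.53 and 4.77 FPKM, and Sox4 from 11.8 and 10.9 to 54.4 and 49 FPKM (adjusted p = 0.0056 and 0.0134). Cdx2, the intestinal identity factor, had 139 and 124 FPKM in Control and 64.1 and 62.8 FPKM in Model, and Hnf4a had 198 and 264 FPKM in Control and 154 and 135 FPKM in Model. The groups did not overlap for either, and neither passed (adjusted p = 0.602 and 0.0671). The limma test also carries the spread of the diet libraries, which the Control and Model values printed here do not show. Falls numbered 2 without either Control library or Model replicate 1, and 4 with the epithelial scaling.

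Genes of chloride, bicarbonate and water transport fell in 14 of 28 and rose in 1 (median -1.144). Aqp8, the water channel of surface colonocytes, had 314 and 369.9 FPKM in Control and 29.6 and 7.71 FPKM in Model (log2 change -4.39 ± 0.59, adjusted p = 0.00339). Slc4a2, a basolateral anion exchanger, had 75.2 and 70.7 FPKM in Control and 33.1 and 30.6 FPKM in Model (log2 change -1.17 ± 0.14, adjusted p = 0.0025). Gucy2c, the receptor that guanylin binds, had 84.4 and 103 FPKM in Control and 45.3 and 35.1 FPKM in Model (log2 change -1.20 ± 0.16, adjusted p = 0.00352), and Guca2a, its ligand guanylin, went from 3247 and 3133 to 404 and 422 FPKM (log2 change -2.95 ± 0.75, adjusted p = 0.0351). Slc26a3, the exchanger of the apical membrane, fell from 295 and 278 to 26.5 and 9.83 FPKM (log2 change -4.06 ± 0.66, adjusted p = 0.00745), and Cftr, the chloride channel, from 26.7 and 38.2 to 11.4 and 12 FPKM (log2 change -1.37 ± 0.26, adjusted p = 0.013). Clca4b was the member that rose, with 1.04 and 1.43 FPKM in Control and 231 and 50.3 FPKM in Model (log2 change 5.62 ± 0.63, adjusted p = 0.00176), and Model replicate 0 was the higher library. Its call held, as did those of Aqp8, Slc4a2, Gucy2c, Clca1 and Car3. Clca1 was named above as a protease of goblet cell mucus. Car3 was among the genes with the lowest moderated t, beside the adipocyte markers Adipoq, Retn and Cfd. The cells in which these members fell were not tested. Falls numbered 5 to 10 when 1 library was left out, fewest without Control replicate 1, and 12 with the epithelial scaling.

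Sodium and potassium transport fell in 8 of 19, with none higher (median -1.27). Prss8, a protease that activates the epithelial sodium channel, had 41.5 and 48.7 FPKM in Control and 19.3 and 16.9 FPKM in Model (log2 change -1.27 ± 0.14, adjusted p = 0.00164), the 1 call that held. Scnn1a, the alpha subunit of that channel, fell from 55.5 and 72.2 to 18.4 and 12.7 FPKM, and Sgk1, an aldosterone-induced kinase, from 80.4 and 105 to 36.2 and 23.3 FPKM (adjusted p = 0.0102 and 0.00657). Nedd4l, the ligase that removes the channel, fell from 13.3 and 13.3 to 6.88 and 6.05 FPKM and lost its call with the epithelial scaling, under which 4 of the list fell. Without Control replicate 1 only 1 of the list fell. Claudins and other tight junction genes passed in 2 of 22, below the 16.2% of all genes tested. The 2 were Cldn4, given above, and Cldn14, which fell from 5.22 and 4.81 to 1.25 and 2.1 FPKM (log2 change -1.19 ± 0.33, adjusted p = 0.044) and lost its call with the epithelial scaling. Cldn2, a leaky claudin, had 49.3 and 80.4 FPKM in Control and 101 and 77.4 FPKM in Model, with overlapping groups.

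Handling of short-chain fatty acids, ketones and bile acids fell in 11 of 19 and rose in 2 (median -1.16). Ffar2, a receptor for acetate and propionate, had 17.1 and 20.6 FPKM in Control and 3.95 and 2.91 FPKM in Model (log2 change -2.16 ± 0.19, adjusted p = 0.000881), and Ffar3, a related receptor, had 2.47 and 2.04 FPKM in Control and 0.0893 and 0.136 FPKM in Model (log2 change -1.55 ± 0.18, adjusted p = 0.00207). Acat1, a mitochondrial thiolase of ketone metabolism, fell from 65.9 and 75.4 to 34.9 and 29.1 FPKM (log2 change -1.12 ± 0.15, adjusted p = 0.00327), and Bdh1, the ketone body dehydrogenase, from 63.1 and 69.7 to 34.7 and 23.4 FPKM (log2 change -1.19 ± 0.19, adjusted p = 0.00745). The 2 carriers of the monocarboxylate family on the list went opposite ways. Slc16a1, which carries butyrate and lactate, fell from 90.6 and 99.7 to 47.5 and 24.6 FPKM, and Slc16a3, a lactate exporter, rose from 5.57 and 4.49 to 56.8 and 35.3 FPKM (adjusted p = 0.0218 and 0.00287). Hcar2, a receptor for butyrate and hydroxybutyrate that neutrophils and macrophages also carry, rose from 0.413 and 0.303 to 3.39 and 2.88 FPKM (log2 change 1.61 ± 0.19, adjusted p = 0.00207). The calls of Ffar2, Ffar3, Acat1, Slc16a3 and Hcar2 held, falls numbered 3 to 7 when 1 library was left out, fewest without Control replicate 1, and the direction of each of these genes was the same with the epithelial scaling.

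**Figure D4:**
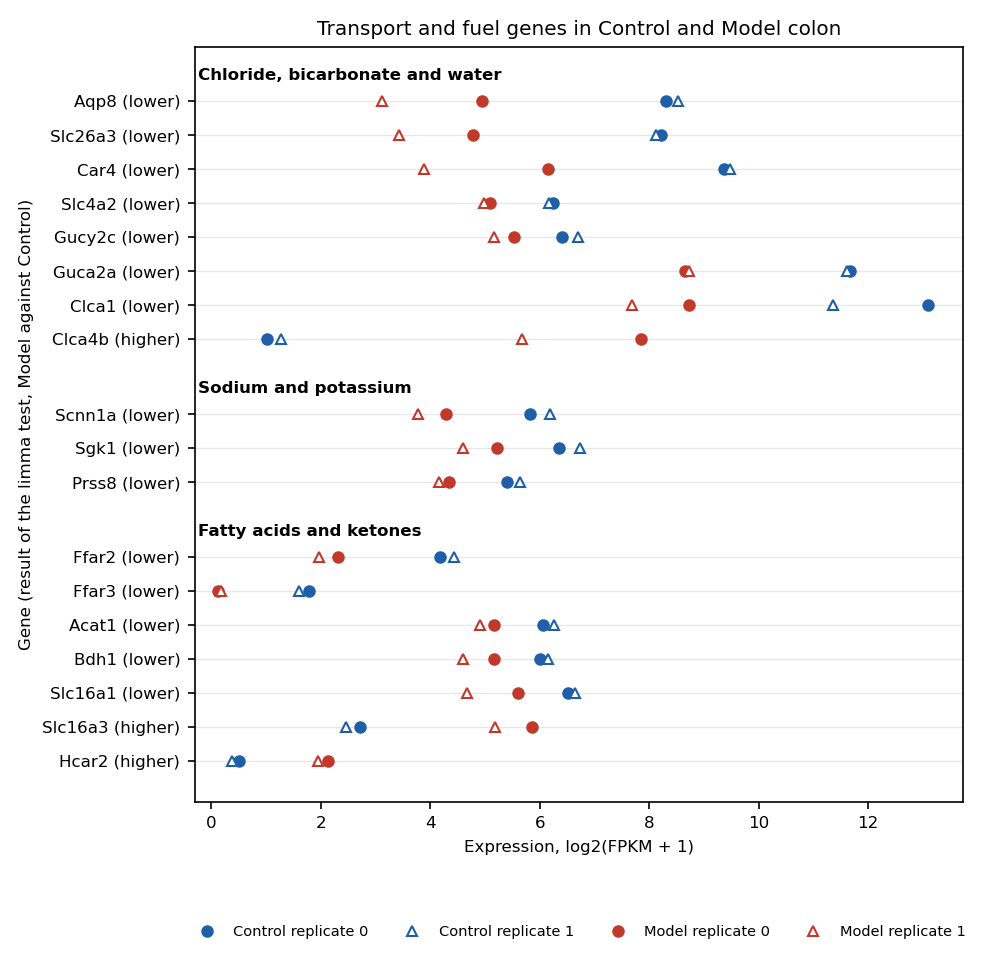
Expression of transport and fuel genes as log2(FPKM + 1) in the 2 Control libraries (blue) and the 2 Model libraries (red), with circles for replicate 0 and open triangles for replicate 1. Most genes lie to the left in Model, while Clca4b, Slc16a3 and Hcar2 lie to the right.

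Respiratory chain genes showed the same direction among gene families. The families in this paragraph were picked for large shares of falls among 240, beside 9.34% over all genes tested. Of 10 tested Ndufb genes, which encode accessory subunits of complex I, 6 fell and all 10 had a negative log2 change (median -0.77). Ndufb10 fell from 372 and 368 to 168 and 151 FPKM (log2 change -1.21 ± 0.22, adjusted p = 0.0107) and Ndufb9 from 593 and 536 to 278 and 239.7 FPKM (log2 change -1.12 ± 0.24, adjusted p = 0.0195). Only 3 of the 10 fell with the epithelial scaling, and all 10 stayed negative under it. None of the 10 fell without Control replicate 0, without Control replicate 1 or without Model replicate 1, and 4 fell without Model replicate 0. Carboxylesterases, which split esters of drugs and lipids, fell in 5 of 11 and rose in 1: Ces2c had 84.4 and 119 FPKM in Control and 11.9 and 9.05 FPKM in Model (log2 change -3.15 ± 0.28, adjusted p = 0.000881), a call that held, and Ces1g, the member that rose, had 3.58 and 4.26 FPKM in Control and 7.4 and 5.66 FPKM in Model, lost with the epithelial scaling. Of 12 carbonic anhydrases, 6 fell and none rose, among them Car4 from 657 and 707 to 69.7 and 13.9 FPKM and Car2 from 451 and 589 to 182 and 227 FPKM, while Car1 (655 and 550.1 FPKM in Control and 502 and 351 FPKM in Model) and Car12 (15.9 and 14 FPKM in Control and 17.2 and 17.5 FPKM in Model) did not pass. With the epithelial scaling 2 carbonic anhydrases fell, and Car2 was not among them. Leaving out 1 library left 2 to 4 falls of carbonic anhydrases and 1 to 4 of carboxylesterases, and no carboxylesterase rose. Of 8 genes with the symbol stem Pcsk, the convertases Pcsk1, Pcsk2 and Pcsk7 fell, as did Pcsk1n, which encodes an inhibitor of Pcsk1. Pcsk2, which matures peptide hormones, went from 2.36 and 2.36 to 0.113 and 0.129 FPKM (log2 change -1.59 ± 0.17, adjusted p = 0.0014), and 2 of the 4 fell with the epithelial scaling.

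Among gene families with rises, 13 of 18 alpha-defensin, 6 of 10 Cxcl, 5 of 11 Sox and 3 of 8 Igsf genes passed as higher. These families were picked for large shares of rises among 240, beside 6.84% over all genes tested. The Igsf family did not rise as a whole, with a median of 0.195 and 4 genes positive and 4 negative. Alpha-defensins at 0 in both Controls, such as Defa24, could only rise, so that share leans upward. Leaving out 1 library left 7 to 13 alpha-defensin, 1 to 3 Cxcl, 0 to 2 Sox and 0 to 1 Igsf rises, with no Sox or Igsf rise without Control replicate 0 or without Control replicate 1. The Cxcl chemokines attract neutrophils and lymphocytes. Cxcl5, which neutrophils follow, had 0.275 and 0.182 FPKM in Control and 64.7 and 18.3 FPKM in Model (log2 change 4.86 ± 0.67, adjusted p = 0.00385), and Cxcl16 had 6.76 and 7.42 FPKM in Control and 20.7 and 38.7 FPKM in Model (log2 change 1.86 ± 0.35, adjusted p = 0.0115). Cxcl5 was highest in Model replicate 0, and its call held. The Sox factors that rose were Sox4, Sox9, Sox17, Sox18 and Sox21, and Sox10, a glial factor, fell. Sox17, an endoderm and endothelial factor, had 0.467 and 0.477 FPKM in Control and 19.1 and 8.71 FPKM in Model (log2 change 3.25 ± 0.69, adjusted p = 0.0199), and Sox21 had 2.8 and 1.54 FPKM in Control and 13.5 and 9.64 FPKM in Model (log2 change 2.00 ± 0.43, adjusted p = 0.0196). The Adam proteases passed both ways: Adam8, Adam10 and Adam12 rose and 5 fell, with a positive median of 0.24. Adam8, a protease of myeloid cells, had 1.34 and 0.681 FPKM in Control and 8.97 and 11.3 FPKM in Model (log2 change 2.48 ± 0.27, adjusted p = 0.00166), and Adam33, a member of smooth muscle and mesenchyme, fell from 4.02 and 1.68 to 0.238 and 0.35 FPKM. No Adam gene fell with the epithelial scaling, and at most 1 fell when a library was left out.

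Mucins, trefoil peptides and enzymes of O-glycans fell in 10 of 34 and rose in none (median -0.84). Fcgbp, a mucus-linked protein, had 1648 and 637 FPKM in Control and 165 and 126 FPKM in Model (log2 change -2.82 ± 0.49, adjusted p = 0.00934), with Control replicate 0 far above Control replicate 1. Tff3, the trefoil peptide of goblet cells, fell from 3293 and 3452 to 1600.5 and 1902 FPKM (log2 change -0.95 ± 0.22, adjusted p = 0.0274). C1galt1c1, the chaperone Cosmc that O-glycan extension needs, fell from 77.1 and 66.1 to 40.9 and 35.2 FPKM, and St3gal4, a sialyltransferase, from 331 and 157 to 53.2 and 48.9 FPKM (adjusted p = 0.0089 and 0.0121). C1galt1c1 and Tff3 lost their calls with the epithelial scaling, under which 5 of the list fell and 1 rose. None of the 10 calls held, and 1 passed without Control replicate 0 or Model replicate 1. Muc2, the main secreted mucin, was not analysed here.

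Of 23 tested Paneth cell genes 13 rose, with a median of 3.97. Members at 0 in both Controls were tested only because AOM/DSS libraries passed the filter on low values, and they could only rise. The count and median therefore lean upward. Their summed level was 7796 and 1430 FPKM in Control and 7098 and 10130 FPKM in Model, so the groups overlapped in the sum, to which Ang4 gave most in Control replicate 0. Defa24 was listed at 0 in both Controls and had 1650.1 and 2048 FPKM in Model, and Habp2, a serine protease, was listed at 0 in both Controls and had 11.1 and 19.3 FPKM in Model (adjusted p = 0.000649 and 0.00164). The alpha-defensins are near-identical copies, so how reads were split among them is uncertain. The calls of 10 of the 13 held. Of 17 tested enterocyte genes of the small intestine, 2 rose and 2 fell (median -0.53), beside 6.84% higher and 9.34% lower of all genes tested. Apob, the carrier of chylomicrons, fell from 13 and 16.7 to 3.44 and 5.57 FPKM, and Slc5a1, the glucose carrier, from 43.2 and 52.8 to 19.8 and 15.3 FPKM (adjusted p = 0.0278 and 0.0453), both lost with the epithelial scaling. Onecut2, a factor of the duodenum and liver, rose from 0 and 0.0101 to 3.26 and 2.19 FPKM (log2 change 1.88 ± 0.29, adjusted p = 0.00572), and Cubn, an endocytic receptor of the ileum, from 0.0947 and 0.0361 to 1.85 and 2.09 FPKM (log2 change 1.48 ± 0.35, adjusted p = 0.0282). Both were near 0 in the Controls and were tested only through AOM/DSS libraries, so the count of rises leans upward here too.

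Other mucosal defence genes passed both ways, 5 higher and 8 lower of 25 (median -0.69). Pla2g2a, a phospholipase that kills bacteria, had 22.4 and 10.5 FPKM in Control and 325 and 214 FPKM in Model (log2 change 4.02 ± 0.44, adjusted p = 0.00164). Saa3, an acute phase protein, had 2.76 and 0.763 FPKM in Control and 117 and 141 FPKM in Model, while its relative Saa1 fell from 2179 and 2651 to 939 and 442 FPKM (adjusted p = 0.00615 and 0.0199). Lcn2, which withholds iron from bacteria, rose from 3.49 and 1.29 to 130.2 and 39.7 FPKM (log2 change 4.51 ± 0.85, adjusted p = 0.012). Gsdmc3, a gasdermin of colon epithelium, fell from 176 and 82.9 to 17.4 and 15.8 FPKM, and Gsdmc4 from 1749.7 and 634 to 226 and 85.4 FPKM (adjusted p = 0.0161 and 0.0242). Retnla, a resistin-like protein, fell from 62 and 8.97 to 0.31 and 0.157 FPKM (log2 change -4.35 ± 0.69, adjusted p = 0.00662). The calls of Pla2g2a and Retnla held, and leaving out 1 library left 1 to 3 rises and 1 to 7 falls, with 2 falls without Control replicate 0 and 1 without Model replicate 1. Reg3g, a lectin that kills Gram-positive bacteria, had 1.5 and 11.4 FPKM in Control and 132 and 15.9 FPKM in Model, and it did not pass (adjusted p = 0.115).

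Several defence genes differed widely between the 2 Control libraries. Ang4, a ribonuclease of Paneth and goblet cells, was at 6377 and 633 FPKM in Control and 462 and 881 FPKM in Model, and Retnlb, a goblet cell protein of type 2 immunity, at 5464 and 194 and 73.1 and 45.5 FPKM. Mptx1, a mucosal pentraxin, was at 39340.5 and 5012 and 112 and 1.47 FPKM (log2 change -9.72 ± 2.29, adjusted p = 0.0271), and its call was lost without either Control library or Model replicate 1. The mast cell proteases Mcpt1 and Mcpt2 were at 104 and 1.34 and at 68.3 and 0.932 FPKM in the Controls. In all 5 genes Control replicate 0 was the higher library. Reg3b went the other way, at 0.698 and 30.8 FPKM in Control and 214 and 7.8 FPKM in Model. Among 7369 genes with at least 10 FPKM in a Control library, 18 were higher by at least 2 (log2) in Control replicate 0 and 9 in Control replicate 1. The Model libraries differed in more genes. Among 7764 genes at that level in a Model library, 35 were higher by as much in Model replicate 0 and 10 in Model replicate 1. The Pearson correlation between replicates across genes was 0.9858 in Control and 0.9636 in Model.

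Model replicate 0 carried genes of squamous epithelium, the lining of the anus and skin. Krt5, a basal keratin, was at 10.3 and 0.13 FPKM, Krt13 at 28.4 and 1.61 FPKM and Krt6a at 25.6 and 0.628 FPKM in the Model libraries. Krtdap, a protein of keratinized layers, was at 13.6 and 0 FPKM, so it was listed at 0 in Model replicate 1. Krt14 was the 1 of 14 squamous markers that passed, with 0.164 and 0.589 FPKM in Control and 51.7 and 9.97 FPKM in Model (log2 change 4.14 ± 0.74, adjusted p = 0.0103). The sum of the 15 markers was 150.5 and 115.9 FPKM in Control and 356.5 and 142.0 FPKM in Model, and 166 to 1164 FPKM in the 6 diet libraries. The call of Krt14 was lost without either Control library, and the part of squamous cells in other results was not tested. Model replicate 1 was the higher library for vessel genes such as Esm1 (2.45 and 19.3 FPKM), Apln (3.54 and 24.3 FPKM) and Angpt2 (4.35 and 24.1 FPKM).

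Genes that restrain immune cells rose in 10 of 17 and fell in none (median 1.25). Arg1, the arginase of suppressive myeloid cells, had 0.812 and 0.517 FPKM in Control and 76.6 and 34 FPKM in Model (log2 change 4.97 ± 0.49, adjusted p = 0.00124), and it was the 1 call that held. Lgals9, galectin 9, rose from 57.6 and 52.8 to 193 and 159 FPKM, and Cd276, the ligand B7-H3, from 4.64 and 5.26 to 13.7 and 12.6 FPKM (adjusted p = 0.00546 and 0.00648). Pdcd1, the receptor PD-1, had 0.463 and 0.23 FPKM in Control and 2.95 and 7.87 FPKM in Model, and Foxp3, the factor of regulatory T cells, 0.116 and 0.115 FPKM in Control and 1.33 and 4.58 FPKM in Model (adjusted p = 0.0132 and 0.0252). Cd274, the ligand PD-L1, had 2.11 and 2.33 FPKM in Control and 2.78 and 4.24 FPKM in Model and did not pass (adjusted p = 0.456). Rises numbered 2 without either Control library, 4 without Model replicate 1 and 11 without Model replicate 0. T and NK cell markers summed to 12.32 and 9.065 FPKM in Control and 23.71 and 80.83 FPKM in Model. Macrophage markers summed to 360.8 and 276.2 FPKM in Control and 759.2 and 1854 FPKM in Model, and the part of cell numbers in these rises was not tested.

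Of 17 genes of the IL-17, IL-22 and IL-23 axis, 2 rose and 1 fell, near the 16.2% of all genes tested that passed. Il23a, the specific subunit of IL-23, had 0 and 0.17 FPKM in Control and 8.48 and 6.37 FPKM in Model (log2 change 2.95 ± 0.41, adjusted p = 0.00377), a call that held. Socs3, a feedback inhibitor of cytokine receptors, rose from 5.55 and 3 to 32.1 and 19.5 FPKM (log2 change 2.35 ± 0.43, adjusted p = 0.0108), and Il17re, the IL-17C receptor of epithelium, fell from 8.79 and 11.9 to 2.65 and 2.23 FPKM (log2 change -1.71 ± 0.37, adjusted p = 0.0205), lost with the epithelial scaling. Of 20 oxidase and nitric oxide genes, 5 rose and 2 fell. Cyba, a subunit of NADPH oxidases, had 98.7 and 106 FPKM in Control and 320.2 and 357 FPKM in Model (log2 change 1.71 ± 0.26, adjusted p = 0.00559), and Nos2, the inducible nitric oxide synthase, had 2.04 and 0.405 FPKM in Control and 12.1 and 8.76 FPKM in Model (log2 change 2.45 ± 0.44, adjusted p = 0.01), while Nos1, the synthase of enteric neurons, fell from 3.64 and 4.2 to 0.107 and 0.139 FPKM (log2 change -2.13 ± 0.19, adjusted p = 0.00087). Noxa1, the activator of the colonic oxidase Nox1, fell from 36.8 and 38.7 to 18.5 and 18.5 FPKM, lost with the epithelial scaling, and Nox1 itself had 12.8 and 12.3 FPKM in Control and 13 and 13.2 FPKM in Model and did not pass. The calls of Cyba, Arg1 and Nos1 held.

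Complement and coagulation genes rose in 12 of 29 and fell in 2 (median 1.34). Cfi, the protease that inactivates C3b, had 0.0856 and 0.106 FPKM in Control and 29.7 and 22.5 FPKM in Model (log2 change 4.61 ± 0.31, adjusted p = 0.000569), and it was the rise that held. C5ar1, the receptor of C5a, had 1.52 and 1.19 FPKM in Control and 5.35 and 10.9 FPKM in Model, and C4b had 9.76 and 6.62 FPKM in Control and 23.2 and 43.2 FPKM in Model (adjusted p = 0.0155 and 0.0138). Plat, tissue plasminogen activator, rose from 8.76 and 7.32 to 185 and 44 FPKM (log2 change 3.35 ± 0.58, adjusted p = 0.00918), most in Model replicate 0. Cfd, the complement protease of fat cells, fell from 26.4 and 29.5 to 1.04 and 0 FPKM (log2 change -4.34 ± 0.31, adjusted p = 0.000611), which held, and Cd59a, which blocks the membrane attack complex, from 21.8 and 14.2 to 4.47 and 7.31 FPKM, lost with the epithelial scaling. Rises numbered 1 without either Control library, 2 without Model replicate 1 and 17 without Model replicate 0.

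Collagens rose in 9 of 30 and fell in 1 (median 0.62), and laminins and matrix glycoproteins rose in 14 of 38 and fell in 1 (median 0.66). Col18a1, a collagen of basement membranes, had 13.8 and 12.4 FPKM in Control and 82.8 and 167 FPKM in Model (log2 change 3.08 ± 0.38, adjusted p = 0.00245), and Thbs2, thrombospondin 2, had 3.77 and 3.85 FPKM in Control and 41.3 and 18.8 FPKM in Model (log2 change 2.59 ± 0.33, adjusted p = 0.00292). These 2 calls held. Lama5, a laminin chain under gut epithelium, rose from 4.81 and 4.65 to 13 and 13.7 FPKM, and Lama1, a chain of early embryos, from 0.269 and 0.208 to 2.75 and 6.3 FPKM (adjusted p = 0.00613 and 0.00941). Lox, which crosslinks collagen, had 1.42 and 2 FPKM in Control and 6.61 and 15.2 FPKM in Model (log2 change 2.04 ± 0.35, adjusted p = 0.0089), and Col9a3, a cartilage-type chain, had 0.487 and 0.277 FPKM in Control and 9.04 and 7.22 FPKM in Model (log2 change 2.72 ± 0.55, adjusted p = 0.0168). Col8a1 fell from 6.3 and 13.1 to 2.44 and 2.87 FPKM, and Sparcl1 from 232 and 175 to 33.9 and 86.8 FPKM, both lost with the epithelial scaling. Model replicate 1 was above Model replicate 0 in the summed collagens (900.0 and 1686 FPKM), and collagen rises were 2 without Control replicate 0, 1 without Control replicate 1, 14 without Model replicate 0 and 2 without Model replicate 1, where the median was 0.0974. Laminin and glycoprotein rises were 3, 1, 16 and 7 in the same order, with a median of 0.275 without Model replicate 1. Fibroblast markers, 6 of 13 higher and 1, 0, 8 and 1 in that order, summed to 658.4 and 565.1 FPKM in Control and 826.6 and 1364 FPKM in Model, and their part in these rises was not tested.

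Integrins, which bind matrix, rose in 6 of 24 and fell in 2. The members that rose included Itgav, with 9.23 and 8.8 FPKM in Control and 27.9 and 20.0 FPKM in Model (log2 change 1.30 ± 0.26, adjusted p = 0.016), and the leukocyte chains Itgb2, Itgam and Itgax, with Itgb2 at 5.5 and 3.27 FPKM in Control and 11.6 and 20.7 FPKM in Model (log2 change 1.65 ± 0.34, adjusted p = 0.0172). Itga7, a laminin receptor of muscle, fell from 16.2 and 13.7 to 4.21 and 5.88 FPKM (log2 change -1.41 ± 0.24, adjusted p = 0.00908), and Itga8, a chain of smooth muscle and mesenchyme, from 2.33 and 2.02 to 0.794 and 0.908 FPKM. No integrin call held, and none rose without Control replicate 1. Both falls were lost with the epithelial scaling.

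Of 26 Myc family and ribosome biogenesis genes, 5 rose and 1 fell (median 0.57). Myc had 18 and 18.8 FPKM in Control and 55.6 and 49.4 FPKM in Model (log2 change 1.46 ± 0.24, adjusted p = 0.00784), Mycl had 7.58 and 7.98 FPKM in Control and 27.2 and 20.4 FPKM in Model (log2 change 1.48 ± 0.32, adjusted p = 0.0196), and Max, their partner, fell from 95.9 and 97.8 to 61.4 and 56.3 FPKM (log2 change -0.71 ± 0.15, adjusted p = 0.0193), lost with the epithelial scaling. Under that scaling 14 of the 26 rose, and none rose without either Control library. Of 24 genes of polyamine and one-carbon metabolism, 3 rose and 2 fell, beside 16.2% of all genes tested that passed. Slc7a5, a carrier of large neutral amino acids, had 8.03 and 6.43 FPKM in Control and 21 and 15.3 FPKM in Model (log2 change 1.21 ± 0.20, adjusted p = 0.00745), and Phgdh, the first enzyme of serine synthesis, had 16 and 13.6 FPKM in Control and 50.3 and 26.6 FPKM in Model (log2 change 1.26 ± 0.36, adjusted p = 0.0492). Slc6a14, an amino acid carrier of colonocytes, fell from 142 and 247 to 47.7 and 11.3 FPKM (log2 change -2.94 ± 0.75, adjusted p = 0.0357). No call of either list held.

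Markers of the muscle wall fell together. All 20 smooth muscle markers fell (median -2.70), 12 of the calls held, 17 fell with the epithelial scaling, and the sums were 11320.0 and 7009 FPKM in Control and 1002 and 1307 FPKM in Model. Hspb6, a small heat shock protein of smooth muscle, had 45.9 and 28.7 FPKM in Control and 5.13 and 4.33 FPKM in Model (log2 change -2.71 ± 0.25, adjusted p = 0.000996). Skeletal muscle markers, a separate list, passed both ways, 1 higher and 2 lower of 5 (median 0.52): Tnni2, a troponin, had 0.995 and 0.138 FPKM in Control and 2.92 and 4.84 FPKM in Model, and Ckm, the creatine kinase of striated muscle, had 35.9 and 20.7 FPKM in Control and 1.72 and 1.74 FPKM in Model (log2 change -3.37 ± 0.29, adjusted p = 0.000807). Neuron and glia markers fell in 13 of 15 (median -1.91) and summed to 183.6 and 182.2 FPKM in Control and 27.09 and 24.4 FPKM in Model. Elavl4, an RNA-binding protein of neurons, had 2.89 and 2.7 FPKM in Control and 0.108 and 0.0852 FPKM in Model (log2 change -1.79 ± 0.17, adjusted p = 0.001). Of 6 markers of interstitial cells of Cajal, the pacemakers of the wall, Etv1 fell from 3.84 and 3.78 to 0.812 and 1.12 FPKM and Kit from 24.4 and 24.4 to 9.06 and 12.2 FPKM, both lost with the epithelial scaling, and Gja1 rose. Adipocyte markers fell in 5 of 8, with Adipoq, the hormone adiponectin, at 6 and 6.88 FPKM in Control and 0.245 and 0 FPKM in Model (log2 change -2.73 ± 0.19, adjusted p = 0.000569). How much muscle wall each piece of tissue held was not given, and its part in the other falls was not tested.

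Other marker lists covered further sources of RNA. Of the pancreatic acinar list, Prss1, Cpa1, Cela3b and Ctrb1 were listed at 0 in all 4 libraries, while Sycn and Zg16, which colon epithelium also makes, fell, Sycn from 2153 and 2679 to 126 and 30.3 FPKM. Neutrophil markers rose in 6 of 9 and summed to 5.07 and 2.991 FPKM in Control and 211.7 and 146.3 FPKM in Model. S100a8, a subunit of calprotectin, had 0.378 and 0 FPKM in Control and 80.1 and 44 FPKM in Model (log2 change 5.69 ± 0.73, adjusted p = 0.00288), and Il1r2, a decoy receptor, had 0.418 and 0.576 FPKM in Control and 5.27 and 5.1 FPKM in Model (log2 change 2.05 ± 0.20, adjusted p = 0.00113). S100a8, Il1r2 and Mmp9, which are on this list, were under 1 FPKM in both Controls. They were tested only because AOM/DSS libraries passed the filter on low values, so the count leans upward. The calls of 4 of the 6 rises held. T and NK cell markers rose in 4 of 10, or in 9 without Model replicate 0 and in none without either Control library. Endothelial markers rose in 2 of 15, or in 7 without Model replicate 0, and none passed among 11 B and plasma cell markers or 5 red cell markers.

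Single transcripts were also tested: 1865 of 17166 passed (10.9%), 4.54% higher and 6.33% lower. In 3 genes a transcript rose while another fell. For Tpm1, an actin-binding tropomyosin, a transcript with 35.1 and 26.4 FPKM in Control had 83.7 and 86.7 FPKM in Model, while another fell from 1369 and 858 to 122 and 139 FPKM, and the summed gene fell from 1523 and 1041 to 395 and 445 FPKM (log2 change -1.59 ± 0.21, adjusted p = 0.00332). For Hdac7, a histone deacetylase, a transcript near 0 in Control (0.0190 and 0.0188 FPKM) had 4.01 and 6.55 FPKM in Model, another fell from 2.16 and 2.43 to 0.000533 and 0.00819 FPKM, and the summed gene did not pass (6.58 and 6.18 FPKM in Control and 9.32 and 13.2 FPKM in Model, adjusted p = 0.0581). For Asph, a hydroxylase gene with several products, a transcript listed at 0 in Control had 6.23 and 2.12 FPKM in Model, and another fell from 19.7 and 18.5 to 10.3 and 7.38 FPKM. The authors' program divides reads among transcripts by a model, so these splits are estimates.

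**Figure D5:**
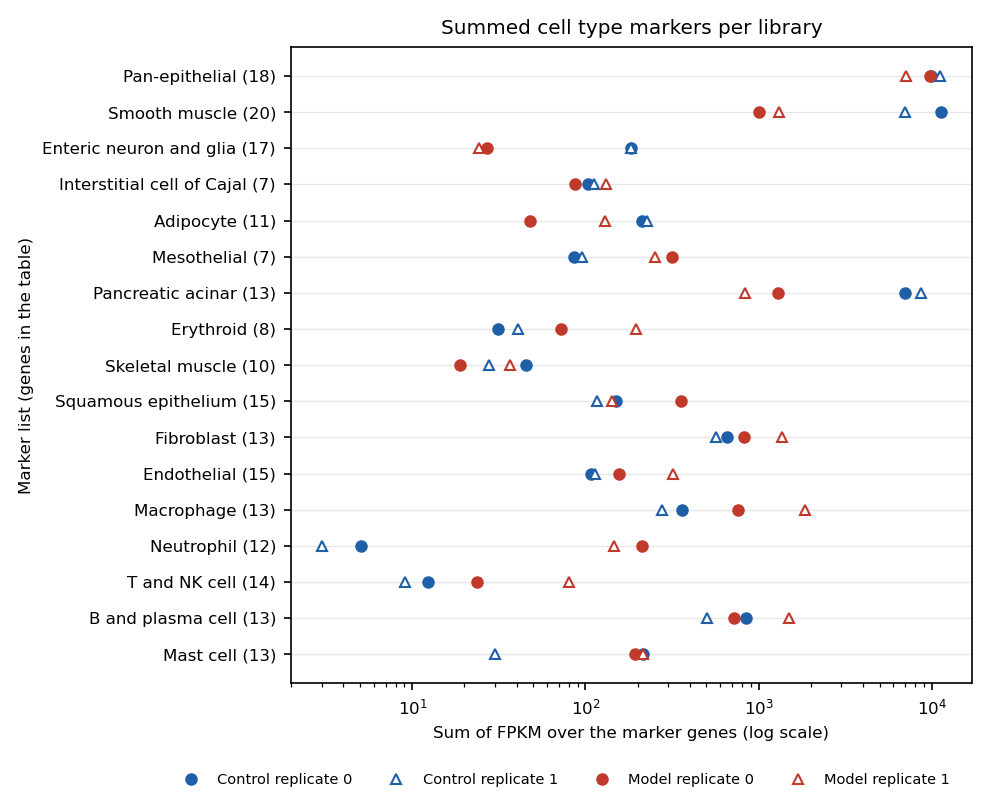
Sum of FPKM over the marker genes of each cell type (log axis) in the 2 Control libraries (blue) and the 2 Model libraries (red), with circles for replicate 0 and open triangles for replicate 1 and the number of genes in the table in brackets. Smooth muscle and neuron sums lie lower in both Model libraries, and neutrophil sums lie higher in both.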

How the data were processed

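RNA of colon tissue was sequenced in 10 libraries, of which the 2 Control and 2 Model libraries are compared here. Per the submitters' processing notes the authors used TopHat2 2.0.9, Bowtie2 2.1.0.0, bcl2fastq 2.17.1.14 and Cuffdiff, and named builds mm10 and GRCm38. The deposited values are FPKM per RefSeq transcript, and no counts were used, so total depth is unknown and no counting interval is given. Transcripts were summed per gene. A gene was tested if 2 or more libraries reached 1 FPKM, as log2(FPKM + 1), with a pseudocount of 1 FPKM, which understates changes of low genes. limma 3.58.1 (R 4.3.3) fitted all 10 libraries with a mean-variance trend and Benjamini-Hochberg adjustment over all genes, and the code was tested on simulated data.

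The gene lists and the comparison were chosen with earlier results of these data known. Named genes were the 12 highest and the 12 lowest by moderated t, the 8 largest gains and the 8 largest losses of mean FPKM, up to 4 members of each list in each direction by p, well-known pathway members whether or not they passed, genes with transcripts passing both ways, and the 6 gene families with the largest share of calls in each direction. Examples within families, AP-1 genes, genes with wide gaps between replicates, and Slc26a3, Car4, Scnn1a, Slc16a1, Dkk2, Ly6a, Anxa1, Cd274, Nox1 and Reg3g were chosen after their values were seen. Alternatives were another pseudocount, filter, scaling, sample set, trend or library weight, a replicate block and leaving out each library. Same-numbered Control and Model libraries did not deviate together (correlation -0.141 across genes), and the labels give no shared animal. Promoter letters are RefSeq's. Results for a few members that passed are not reported here.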

Additional observations from a re-analysis of the deposited data

How the results depend on the processing

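Calls changed most when 1 library was left out. Leaving out 1 library at a time gave 553 to 1636 genes, 193 to 875 higher and 360 to 761 lower, and 383 to 1082 transcripts; a set of 446 genes passed in all 4 fits. Each such fit has 1 library left in a group, which is assumed to vary like the other groups. It also has less power, so a lost call need not mean that the library left out differed. Scaling to the epithelial markers left 485 lower genes, and 1352 of the 2276 calls were kept. A replicate block gave 2062 genes and 1666 transcripts, with 1947 calls kept. With the Control numbers crossed, a pairing added after the data were seen, it gave 2159 genes and 1695 transcripts. Array weights gave 3103 genes. A fit of only the 4 Control and Model libraries gave 2591 genes, with 1912 of the 2276 calls kept. Among genes that did not pass, the sign of Gli1 turned with a pseudocount of 5 FPKM (0.00347), with the epithelial scaling (0.248), without Control replicate 0 (0.0985) and without Model replicate 0 (0.432). Hes1 turned without Control replicate 1 (-0.00156) and without Model replicate 1 (-0.0240), Id1 without Control replicate 1 (-0.139) and without Model replicate 0 (-0.124), and Ihh without Model replicate 0 (-0.274). Over the 4 fits that leave out a library, Gli1 ranged from -0.49 to 0.43, Hes1 from -0.0240 to 0.12, Id1 from -0.14 to 0.48 and Ihh from -0.27 to 0.38. The cause was not tested.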
